A study of Mus musculus with 6 samples.

Results

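A set of 9 genes known for high expression in resting, non-reactive astrocytes was followed across the 6 arrays of this series: Slc1a2, Slc1a3, Glul, Gja1, Gjb6, Apoe, Clu, Sparcl1 and Aldoc. They were taken as a given list of 9 symbols among the 18193 genes that have a probe set with a single symbol, and all 28 of their single-symbol probe sets were read, not only the brightest. The RNA came from cortex of S100a10 bacTRAP mice, in which a bacterial artificial chromosome with the S100a10 promoter tags ribosomes so that RNA being translated can be pulled down (translating ribosome affinity purification, TRAP). All mice, controls included, also carried the constitutive knockout of p11, the protein encoded by S100a10 (line ES691/p11 KO), on a background backcrossed for 3-5 generations from FVB to C57BL/6. The FLX group drank fluoxetine, a selective serotonin reuptake inhibitor, at 0.167 mg/ml in 1% saccharine, and the VEH group drank 1% saccharine alone, each for 15-18 days. Each group had 3 arrays, labelled as biological replicates 1 to 3; the labels give no age or sex and do not say whether animals were pooled. The transgene is meant to mark cortical pyramidal cells, and the submitters state that it also labels some non-neuronal cells. The comparison of FLX with VEH asks what fluoxetine does to translated RNA in these cells when p11 is missing.

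Astrocytes take up synaptic glutamate through the transporters encoded by Slc1a2 (GLT-1) and Slc1a3 (GLAST), and glutamine synthetase, encoded by Glul, turns it into glutamine that is handed back to neurons. They form a coupled network through gap junctions built from the connexins encoded by Gja1 and Gjb6, and they secrete apolipoprotein E (Apoe), clusterin (Clu) and the matricellular protein encoded by Sparcl1, while Aldoc encodes the brain isoform of the glycolytic enzyme aldolase. Of these 9 genes, 5 (Clu, Gja1, Apoe, Slc1a3 and Gjb6) are also known from cells of the leptomeninges, the thin membranes that cover the cortex, or from fibroblasts around vessels. The other 4 (Slc1a2, Glul, Aldoc and Sparcl1) are less tied to meninges, although Glul also occurs in oligodendrocytes and Sparcl1 in vessel cells and neurons.

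The 9 genes did not behave as one group across the arrays, and the sequences upstream of 5 genes are shown because their values, given further on, ran in different directions. Gja1 and Gjb6, the connexin genes, and Apoe were far lower in the replicate 3 arrays, the leading probe set of Glul hardly differed, and Aldoc was higher there. Each stretch is the 250 bases before the annotated start in RefSeq's GRCm38.p6 table, written 5′ to 3′ on the gene's strand. RefSeq promoter windows were found for 7 of the 9 genes, 10 windows in all, of which Apoe has 3 and Aldoc 2. The window farthest upstream is shown for those. Capitals mark matches on either strand to any of 4 short motifs. The TATA box was searched as TATAAA. The core bound by nuclear factor Y was searched as CCAAT. The GC box, bound by Sp proteins, was searched as GGGCGG. The core bound by nuclear factor I proteins was searched as TTGGC, and its reverse complement can overlap a nuclear factor Y core.
Gja1, chr10:56377050-56377299, plus strand: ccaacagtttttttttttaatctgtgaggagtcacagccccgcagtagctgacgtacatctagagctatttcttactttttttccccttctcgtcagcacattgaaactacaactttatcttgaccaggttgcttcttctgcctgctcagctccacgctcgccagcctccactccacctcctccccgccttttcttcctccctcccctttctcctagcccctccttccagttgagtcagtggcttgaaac
Gjb6, chr14:57133612-57133861, minus strand: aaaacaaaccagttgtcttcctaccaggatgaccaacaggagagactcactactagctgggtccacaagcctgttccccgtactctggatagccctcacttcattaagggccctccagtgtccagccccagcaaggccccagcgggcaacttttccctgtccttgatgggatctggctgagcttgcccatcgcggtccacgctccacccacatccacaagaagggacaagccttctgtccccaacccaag
Apoe, chr7:19699189-19699438, minus strand: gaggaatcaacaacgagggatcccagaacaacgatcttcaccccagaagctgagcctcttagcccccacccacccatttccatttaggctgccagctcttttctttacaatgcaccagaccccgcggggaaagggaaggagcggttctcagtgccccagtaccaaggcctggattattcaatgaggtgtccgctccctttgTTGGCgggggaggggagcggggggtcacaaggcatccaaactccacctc
Glul, chr1:153899679-153899928, plus strand: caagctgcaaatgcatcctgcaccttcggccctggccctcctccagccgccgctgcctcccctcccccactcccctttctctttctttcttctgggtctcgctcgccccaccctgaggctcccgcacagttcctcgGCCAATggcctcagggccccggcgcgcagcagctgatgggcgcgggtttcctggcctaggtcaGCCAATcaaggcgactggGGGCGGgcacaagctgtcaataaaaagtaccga
Aldoc, chr11:78322823-78323072, plus strand: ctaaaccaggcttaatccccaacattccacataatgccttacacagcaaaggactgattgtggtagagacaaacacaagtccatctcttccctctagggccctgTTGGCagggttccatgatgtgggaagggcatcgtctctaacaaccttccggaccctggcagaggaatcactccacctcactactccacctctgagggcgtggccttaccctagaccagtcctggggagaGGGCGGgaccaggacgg
The Gja1 and Gjb6 windows held 0 matches to any of these motifs. The Apoe window shown held a nuclear factor I core 49 bases before the start, another Apoe window held the same core at 57 bases, and the remaining one held 2 overlapping TATA boxes, at 100 and 96 bases. The Glul window held 2 nuclear factor Y cores, 113 and 50 bases before the start, and a GC box at 33 bases, and a nuclear factor I core overlapped each nuclear factor Y core. The Aldoc window shown held a GC box at 17 bases and a nuclear factor I core at 146 bases, and the other Aldoc window held 0 matches. Among all 32851 windows of this length, 12.4% held the TATA box, 33.8% the nuclear factor Y core, 32.7% the GC box and 41.5% the nuclear factor I core, so these matches are common and describe the letters only.

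All values are normalized probe set intensities on a linear scale, with array medians of 38.5 to 41.9. S100a10 itself, by its brightest probe set, had 2222, 2037 and 349 in FLX replicates 1, 2 and 3, and 3111, 2248 and 643 in VEH replicates 1, 2 and 3. Replicate 3 was thus its lowest array in both groups. Where that probe set lies against the deletion is unknown here, so it checks nothing about the genotype. Arrays of replicates 1 and 2 correlated at r = 0.987 to 0.995 with each other, whereas the replicate 3 arrays reached 0.867 to 0.916 with them and 0.973 with each other. What the replicate number stands for is not given in the labels. Results are therefore given by replicate number and, where it matters, without replicate 3. Of 11 neuronal markers all 11 were measured at a group mean of 50 or more, and of 35 other astrocyte genes 32 were. Of all 18193 genes 12214 were, so reaching this level does not by itself show which cells the RNA came from. The probe set with the highest mean log2 value of each of the 9 genes (its leading probe set) was at 50 or more in all 6 arrays. Whether the genes are more abundant than others cannot be read from arrays, where probes differ in brightness.

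No difference between FLX and VEH passed the test in any of the 9 genes. With limma across 22200 probe sets, 0 of the 21 member probe sets that reached the minimum passed a Benjamini-Hochberg adjusted p of 0.05, against a background of 0% of all probe sets called. At an unadjusted p under 0.05 the count was also 0 of 21, against 0.374% of all probe sets. The adjusted p was 1.00 for every member. With the replicate number as a block 0 passed again (0% called in all), and 2 of 21 had an unadjusted p under 0.05 where 7.95% of all probe sets did. The other 7 member probe sets were too dim to be tested.

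The log2 differences of FLX minus VEH were positive for 5 genes and negative for 4, from -0.28 for Gjb6 to 0.41 for Sparcl1. Their median was 0.04, beside 0.05 over the 12214 genes tested, of which 58.1% were positive. No gene separated the groups: 0 of the 21 probe sets had every FLX value above every VEH value, where 2.55% of all tested probe sets did, and 0 had every FLX value below, where 1.79% did. By replicate number, the medians of the 9 genes were -0.17, 0.17 and 0.13, with 4, 9 and 5 genes higher in FLX. The medians of all genes in the same pairs were 0.01, -0.01 and 0.15. The direction of the median depended on single arrays, with -0.37 without FLX replicate 2 and -0.41 without VEH replicate 3. It was 0.06 without FLX replicate 1, 0.59 without FLX replicate 3, 0.25 without VEH replicate 1, 0.42 without VEH replicate 2 and 0.04 without both replicate 3 arrays. With a single array left out the replicate numbers were unequal between the groups, so those medians also carry the difference of replicate 3 from the others.

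**Figure D1:**
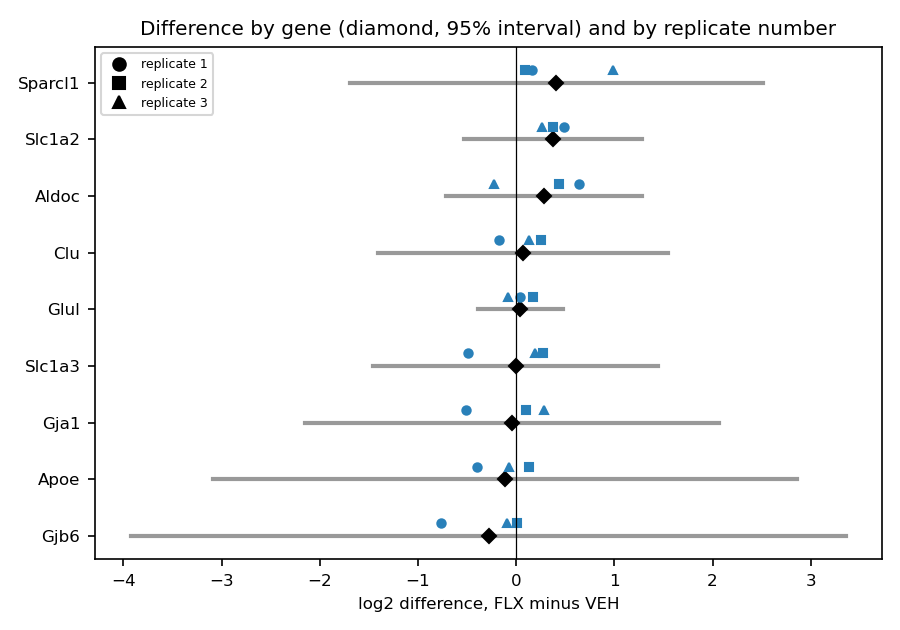
Log2 difference of FLX minus VEH for the leading probe set of each gene, with the limma estimate as a diamond, its 95% confidence interval as a grey bar, and the difference within each replicate number as a blue marker. Every interval includes 0; the interval is narrowest for Glul (-0.39 to 0.47) and widest for Gjb6 (-3.92 to 3.36).

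Slc1a2, which encodes the main glutamate transporter of the adult forebrain, had normalized values of 3146, 4654 and 2261 in FLX replicates 1, 2 and 3, and 2241, 3600 and 1887 in VEH replicates 1, 2 and 3. FLX was the higher array in each of the 3 pairs, but the groups overlapped, since both replicate 2 arrays were high and both replicate 3 arrays low. The log2 difference was 0.37 (SE 0.37, 3 arrays per group, limma adjusted p = 1.00), with 0.49, 0.37 and 0.26 in pairs 1, 2 and 3. Being higher in all 3 pairs was no rarity: 19.6% of all tested probe sets were, and 4 of the 21 member probe sets. The 95% interval of the fold ran from 0.690 to 2.43 without the block and from 1.00 to 1.67 with the replicate number as a block, where the unadjusted p was 0.0486 and limma's adjusted p 0.625.

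The probe sets of Slc1a2 disagreed with each other. The second-brightest one had 199, 173 and 365 in FLX replicates 1, 2 and 3, and 268, 176 and 392 in VEH replicates 1, 2 and 3. Here the replicate 3 arrays were the highest and FLX was the lower array in each pair, the reverse of the leading probe set. It was the 1 member probe set lower in all 3 pairs, where 13.6% of all tested probe sets were. Its log2 difference was -0.19 (SE 0.42, limma adjusted p = 1.00). The next, also tested, lay between 36.2 and 76.3 in all arrays, and the other 2 between 7.24 and 14.8. The transcripts that each probe set matches are unknown here, so the direction stated for Slc1a2 holds for its leading probe set.

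**Figure D2:**
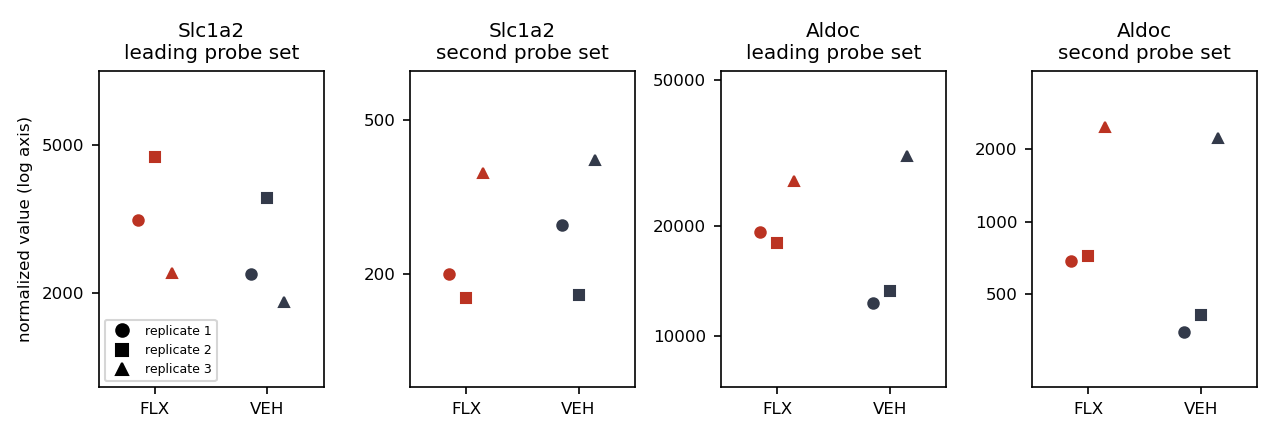
Normalized values by array on a log axis for the leading and the second-brightest probe set of Slc1a2 and of Aldoc, with FLX in red, VEH in dark grey and the marker shape giving the replicate number. Replicate 3 is lowest within each group for the leading Slc1a2 probe set and highest for the other 3 probe sets.

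Slc1a3, which encodes the second astrocyte glutamate transporter, had values of 532, 1187 and 362 in FLX replicates 1, 2 and 3, and 745, 981 and 317 in VEH replicates 1, 2 and 3. Replicate 2 was high and replicate 3 low in both groups, and the groups overlapped. The log2 difference was -0.01 (SE 0.59), made of -0.49, 0.28 and 0.19 in the 3 pairs. Its second-brightest probe set differed by 0.21 (SE 0.90) and the next by -0.14 (SE 0.43), so the probe sets did not share a sign, and the other 3 were below the minimum.

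Glul, for glutamine synthetase, varied least among the 9 leading probe sets. Its leading probe set had 16758, 17804 and 17228 in FLX replicates 1, 2 and 3, and 16356, 15785 and 18199 in VEH replicates 1, 2 and 3, which gave 17264 ± 524 (SD, n = 3) in FLX and 16780 ± 1261 (SD, n = 3) in VEH. The groups overlapped, and replicate 3 did not stand apart. The log2 difference was 0.04 (SE 0.18), and the 95% interval of the fold was 0.764 to 1.39, the narrowest among the 9. The second Glul probe set had 7750, 10227 and 7712 in FLX replicates 1, 2 and 3, and 9285, 8924 and 6414 in VEH replicates 1, 2 and 3, with a log2 difference of 0.07 (SE 0.24). Here replicate 3 was the lowest array in both groups, by 1.15-fold in FLX and 1.42-fold in VEH against the mean of replicates 1 and 2, so in VEH arrays the probe sets of Glul differed in direction.

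The connexin genes varied with the replicate number far more than with treatment. Gja1, which encodes the main astrocyte gap junction protein, had 12010, 20619 and 4183 in FLX replicates 1, 2 and 3, and 17151, 19216 and 3434 in VEH replicates 1, 2 and 3. Gjb6, which encodes its smaller partner connexin, had 3762, 7062 and 395 in FLX replicates 1, 2 and 3, and 6385, 7008 and 421 in VEH replicates 1, 2 and 3. Both replicate 3 arrays were the lowest for both genes, and FLX replicate 1 was lower than VEH replicate 1. The log2 difference of FLX minus VEH was -0.04 (SE 0.87) for Gja1 and -0.28 (SE 1.49) for Gjb6. The 95% interval of the Gjb6 fold ran from 0.066 to 10.3 without the block and from 0.596 to 1.14 with the replicate number as a block, and no call changed. The 4 tested probe sets of Gja1 had differences from -0.13 to -0.00, with replicate 3 lowest in each.

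Apoe, for apolipoprotein E, had 7609, 16730 and 1381 in FLX replicates 1, 2 and 3, and 10026, 15317 and 1452 in VEH replicates 1, 2 and 3. Clu, for the secreted chaperone clusterin, had 19829, 36047 and 10440 in FLX replicates 1, 2 and 3, and 22386, 30286 and 9525 in VEH replicates 1, 2 and 3. The order of the arrays was the same for both genes within each group, replicate 2 above 1 above 3, and the groups overlapped. The log2 difference was -0.11 (SE 1.22) for Apoe and 0.07 (SE 0.61) for Clu. The 4 probe sets of Clu had differences from 0.03 to 0.22, all positive, and each of them was lowest in replicate 3.

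Sparcl1, which encodes a secreted relative of SPARC that promotes synapse formation, had 3756, 6768 and 1652 in FLX replicates 1, 2 and 3, and 3359, 6376 and 835 in VEH replicates 1, 2 and 3. FLX was higher in each pair, by 0.16, 0.09 and 0.98 on the log2 scale, so most of the difference of 0.41 (SE 0.86) came from replicate 3. The groups overlapped.

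Aldoc ran the other way from most of the list. Its leading probe set had 19296, 17937 and 26501 in FLX replicates 1, 2 and 3, and 12353, 13260 and 30964 in VEH replicates 1, 2 and 3. Replicate 3 was the highest array in both groups, FLX was higher in pairs 1 and 2 (0.64 and 0.44) and lower in pair 3 (-0.22), and the groups overlapped. The second probe set had 686, 720 and 2470 in FLX replicates 1, 2 and 3, and 350, 412 and 2216 in VEH replicates 1, 2 and 3, so FLX was higher in each pair, by 0.97, 0.81 and 0.16. The log2 differences were 0.28 (SE 0.41) and 0.64 (SE 0.86), both with a limma adjusted p of 1.00. With the replicate block the second probe set had an unadjusted p of 0.0140 and an adjusted p of 0.623.

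**Figure D3:**
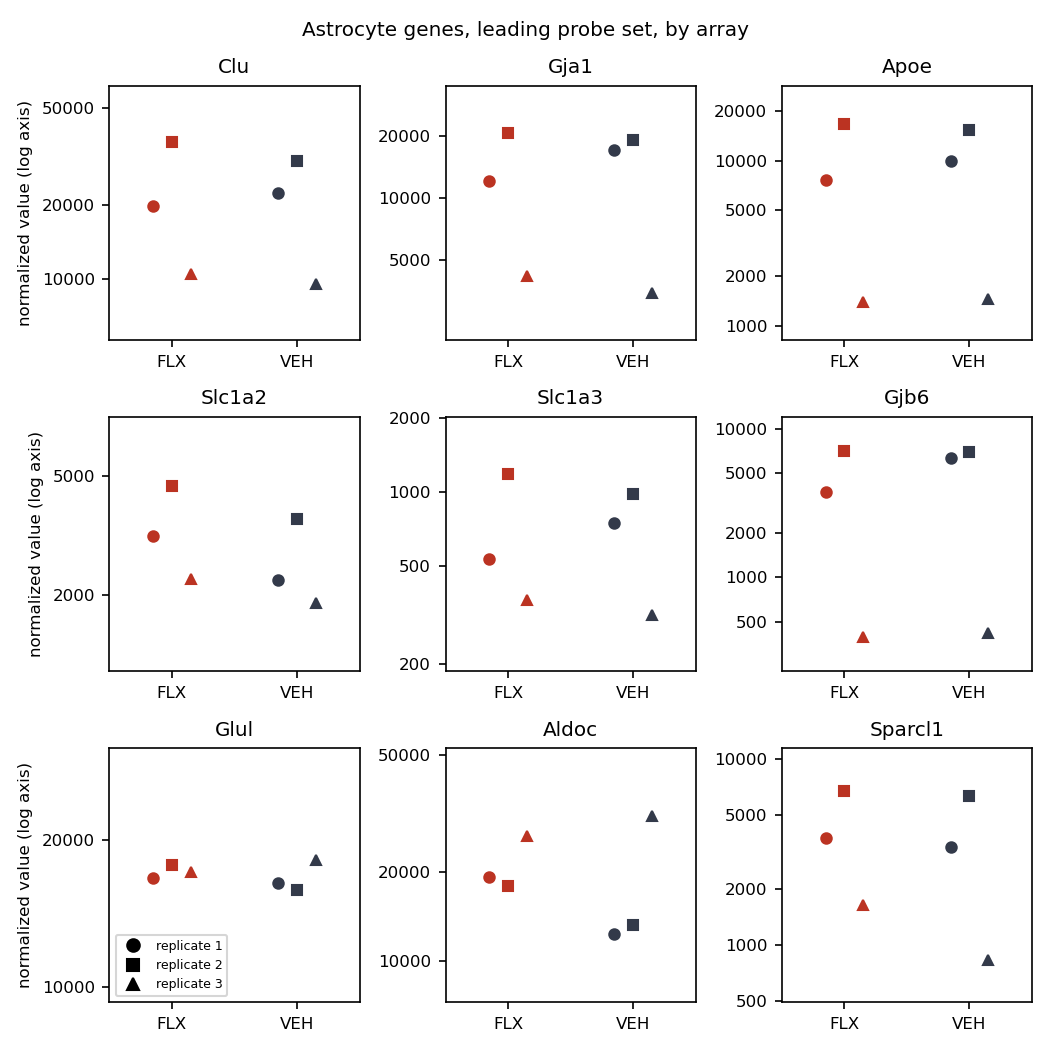
Normalized value of the leading probe set of each gene in every array, on a log axis, with FLX in red, VEH in dark grey and the marker shape giving the replicate number. Replicate 3 (triangles) is lowest in both groups for 7 genes, Glul stays between 15785 and 18199, and Aldoc is highest in replicate 3.

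The difference between replicate 3 and the mean of replicates 1 and 2 exceeded the difference between treatments in size for 8 of the 9 genes in FLX arrays and for 9 of 9 in VEH arrays. The same count over all tested genes was not made. A difference of 1 array from the mean of 2 also varies more than a difference between means of 3. These counts therefore do not set the 9 genes apart from other genes. The replicate 3 difference is given as a description, with no test, because the replicate 3 arrays were seen to stand apart in these data. Gjb6 was lower in replicate 3 by 13.1-fold in FLX and 15.9-fold in VEH arrays, and Apoe by 8.17-fold and 8.53-fold. Gja1 was lower by 3.76-fold and 5.29-fold, Sparcl1 by 3.05-fold and 5.54-fold, and Clu by 2.56-fold and 2.73-fold. Slc1a3 was lower by 2.19-fold and 2.70-fold, and Slc1a2 by 1.69-fold and 1.51-fold. The leading probe set of Glul stood at 0.997 and 1.13 times its level in the other replicates, and Aldoc at 1.42 and 2.42 times. For comparison, 6.75% of all tested genes were at least 4-fold lower in replicate 3 in FLX arrays and 9.62% in VEH arrays, and the median of all genes was 0.05 and -0.10 on the log2 scale. The RNA was pulled down from many cells at once. Fewer cells of a type, less RNA per cell, and a difference in tagging or pull-down cannot be told apart here.

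The 5 genes also known from leptomeningeal cells were all lower in replicate 3, in FLX and in VEH arrays. On the log2 scale their median was -1.91 among FLX and -2.40 among VEH arrays, in a range from -3.99 to -1.13. The other 4 ranged from -2.47 for Sparcl1 to 1.27 for Aldoc, both in VEH arrays, with medians of -0.38 and -0.21. The split was not clean, since Sparcl1 was lower by more than Clu and Slc1a3. The difference between the 5 genes and the other 4 was not tested.

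Markers of leptomeningeal cells moved with these genes. Of 20 such markers 20 were lower in replicate 3, and the median log2 difference was -3.72 among FLX and -3.46 among VEH arrays. Their summed value was 147254, 216197 and 36013 in FLX replicates 1, 2 and 3, and 203313, 208376 and 57793 in VEH replicates 1, 2 and 3. In that sum FLX replicate 1 also lay below FLX replicate 2 and below VEH replicate 1. The leading probe sets of Gja1, Gjb6, Apoe, Clu and Slc1a3 had that order too. Between the replicate 3 arrays the sum was lower in FLX than in VEH, as were Gjb6 and Apoe, whereas Gja1, Clu and Slc1a3 were higher in FLX. No marker was at 0, as the lowest value in the table is 1.60. Of the sum left in replicate 3, Ptgds, which is also an oligodendrocyte gene, held 25332 in FLX and 38518 in VEH. The part of leptomeningeal RNA in the values of the 9 genes was not tested.

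Other cell types moved with replicate number as well. Pericyte and smooth muscle markers were lower in replicate 3 in 4 of 6 tested genes in each group, with summed values of 2341 to 9072 in FLX and 2525 to 10951 in VEH. Rgs5 and Cspg4 were higher there in both groups, Rgs5 by 1.96 in FLX and 1.55 in VEH on the log2 scale. Endothelial markers were lower in 7 of 8 tested genes in each group (summed values of 1119 to 10863 in FLX and 1233 to 9982 in VEH). Most of that sum was 1 gene, Itm2a, at 587 to 9227 in FLX and 714 to 8362 in VEH. The endothelial markers Pecam1, Cdh5, Flt1, Tek and Ocln were too dim to be tested. Microglia and macrophage markers were lower in 12 of 14 genes in FLX and 13 of 14 in VEH, with sums of 6699 to 15106 and 4996 to 16325. Oligodendrocyte markers were higher in 6 of 8 genes in each group, and their sum was 72224 in FLX replicate 3 and 67404 in VEH replicate 3 against 22053 to 26155 in the other arrays. Mbp and Cnp held most of that sum, and Mag and Ugt8a were lower in replicate 3 in both groups. Neuronal markers were higher in 8 of 11 genes in FLX and 7 of 11 in VEH, with sums of 121867 to 149698 and 110053 to 137235. Among them Syt1 (-1.12 in FLX and -1.21 in VEH, log2), Thy1 (-1.13 and -0.83) and Slc17a7 (-0.48 and -0.76) were lower in both groups. Of 4 tested choroid plexus and ependymal markers, 3 were lower in FLX and 4 in VEH, with sums of 237 to 418 and 277 to 577. As a measure of RNA integrity, the control probe sets at the 3′ end of Gapdh and Actb exceeded those at the 5′ end, in the log2 mean, by 2.08 and 2.19 in FLX and VEH replicate 3 and 2.09 to 2.33 in the other arrays. The part of these in the values of the 9 genes was not tested.

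**Figure D4:**
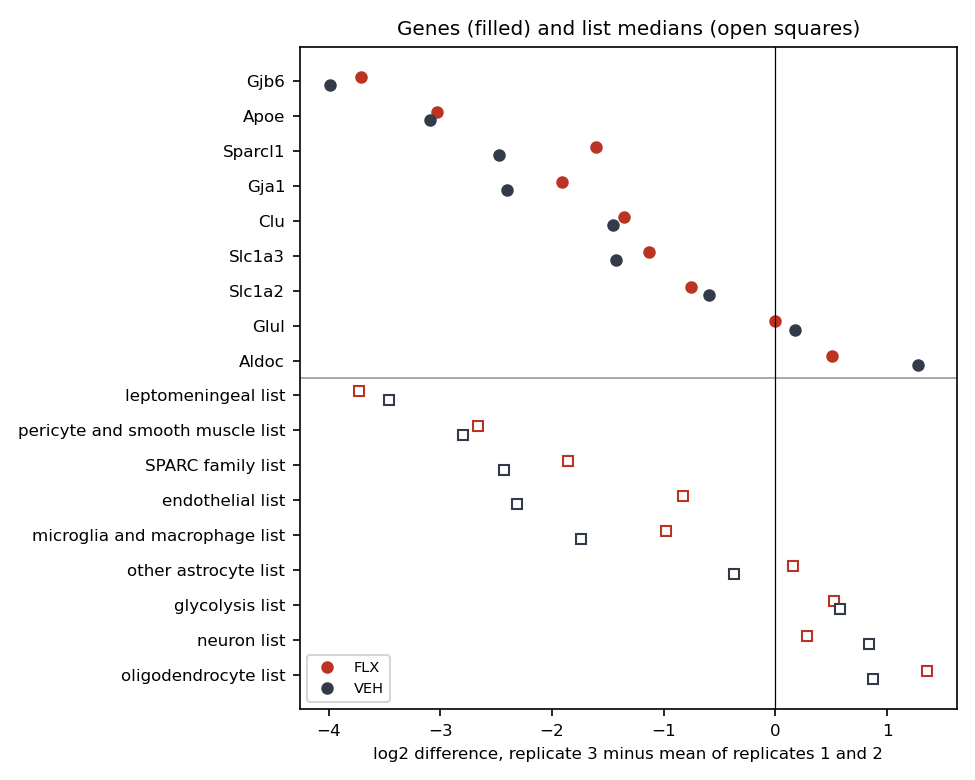
Log2 difference between replicate 3 and the mean of replicates 1 and 2, in FLX (red) and VEH (dark grey), for the 9 genes (filled circles) and as the median of marker and pathway lists (open squares). Gjb6 and Apoe lie near the leptomeningeal median (-3.72 and -3.46), and Aldoc lies on the side of the neuronal, glycolytic and oligodendrocyte lists.

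Replicates 1 and 2 also differed for these genes. In 8 of 9 genes replicate 2 was above replicate 1 in FLX arrays and in 8 of 9 in VEH arrays, with median log2 differences of 0.85 and 0.40, beside -0.02 and -0.01 over all tested genes. The FLX gap was largest for Slc1a3 (2.23-fold) and Apoe (2.20-fold), and the VEH gap for Sparcl1 (1.90-fold) and Slc1a2 (1.61-fold). Leptomeningeal markers had medians of 0.90 and 0.23 in the same comparison, and the other astrocyte genes 0.67 and 0.39.

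Other astrocyte genes, from a list of 36 without these 9, were mixed in replicate 3. Of 32 tested, 15 were lower and 17 higher in replicate 3 in FLX arrays (median 0.16), and 19 lower and 13 higher in VEH arrays (median -0.37), where 46.8% and 54.1% of all tested genes were lower. Some were as low in replicate 3 as Gja1 or nearly so, among them F3 (-2.83 in FLX and -4.94 in VEH), Atp1b2 (-2.13 and -2.88) and Slc6a9 (-1.77 and -2.53). Others were clearly higher there in both groups, among them Gfap (2.06 and 2.06), Acsbg1 (2.01 and 2.73) and Plcd4 (1.82 and 1.98). These named genes were chosen after their values were seen. The summed value of the 32 genes was 22615 to 32348 in FLX and 20757 to 29777 in VEH arrays. Between treatments 28 of the 32 had a positive difference, with a median of 0.25, and 0 passed limma's threshold in either direction, with or without the block. Without the block the smallest p belonged to Bmpr1b, a receptor for bone morphogenetic proteins, at 80.4 ± 10.7 in FLX and 45.0 ± 26.1 in VEH (SD, n = 3), and to the peptide transporter gene Slc15a2 at 208 ± 72.8 and 120 ± 37.2 (SD, n = 3). With the block 12 of the 32 had an unadjusted p under 0.05, where 7.95% of all probe sets did. The smallest belonged to Gfap, the astrocyte intermediate filament, with a log2 difference of 1.50 and, by limma with the block, an unadjusted p of 4.2e-05 and an adjusted p of 0.574.

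Genes that work with the 9 gave 0 calls in either direction in every list, with limma with and without the block. For glutamate and glutamine handling, 9 of 13 differences were positive (median 0.14), with Got1, an aspartate aminotransferase, at 0.50 (SE 0.25) and Glud1, glutamate dehydrogenase, at 0.48 (SE 0.28). For other connexins and pannexins, 2 of 5 were positive (median -0.03), with Gjc1 at -0.53 (SE 0.68) and Panx2 at 0.10 (SE 0.31). For lipoprotein handling, 8 of 11 were positive (median 0.17), with the cholesterol exporter genes Abcg1 at 0.33 (SE 0.19) and Abcg4 at 0.30 (SE 0.19). For relatives of Sparcl1, 4 of 7 were positive (median 0.05), with Spock2 at 0.32 (SE 0.35) and Smoc2 at 0.44 (SE 0.76), and all 7 were lower in replicate 3 in both groups (medians of -1.85 and -2.43). For glycolysis, 10 of 12 were positive (median 0.20), with the phosphofructokinase genes Pfkm at 0.49 (SE 0.34) and Pfkp at 0.42 (SE 0.32). In replicate 3 all 12 glycolysis genes were higher in FLX arrays and 11 in VEH arrays, with medians of 0.52 and 0.58, the side on which Aldoc also lay.

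Correlations over the 6 arrays carry no test, since all pairs share the replicate 3 arrays. They followed the division into genes also known from leptomeningeal cells and the others only in part. Among the genes also known from leptomeningeal cells r ran from 0.92 (Gjb6 with Slc1a3) to 0.99. With the same genes, Sparcl1 ran as high, from 0.92 (Gjb6) to 0.97 (Clu). Slc1a2 ran lower with them, and Glul (-0.43 with Slc1a3 to -0.58 with Gjb6) and Aldoc (-0.81 with Slc1a3 to -0.91) ran the other way. Gja1 and Gjb6 correlated at r = 0.99, Apoe with Clu at 0.99 and Clu with Slc1a3 at 0.99. Slc1a2 reached 0.72 with Gjb6, 0.87 with Clu and 0.89 with Sparcl1, and Aldoc reached -0.91 with Gja1 and with Gjb6 but 0.80 with Glul. Outside the list, the genes whose log2 values ran most like Gja1 over 6 arrays were Il34 (0.9994), Golim4 (0.9991), Aga (0.9990) and Edem2 (0.9987). Those most like Slc1a2 were Tril (0.989), Tenm1 (0.988), S1pr5 (0.986) and Reep6 (0.972). Il34, which encodes a cytokine ligand of the CSF1 receptor, had 384, 655 and 104 in FLX replicates 1, 2 and 3, and 537, 617 and 85.0 in VEH replicates 1, 2 and 3. Tril, a regulator of Toll-like receptor signalling and itself one of the listed astrocyte genes, had 85.7, 103 and 74.8 in FLX and 70.6, 91.5 and 62.7 in VEH replicates 1, 2 and 3.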

How the data were processed

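The authors deposited 1 GCRMA-normalized intensity per probe set and array, per the submitters' processing notes, and the range of the values shows a linear scale. The GCRMA version, its settings and any genome build are unknown here. Per the labels, 15 ng of RNA was amplified in 2 cycles and labelled with biotin. Of 45101 probe sets, 64 controls were left out, 34945 of the rest had 1 gene symbol in the platform annotation, 932 several and 9160 none. Probe sets with a mean of 50 or more in at least 1 group were tested (22200) on log2 values, with no pseudocount, by limma 3.58.1 in R 4.3.3, two-sided, treatment as the only term, adjusted by Benjamini-Hochberg over all tested probe sets. Each gene was led by its probe set with the highest mean log2 value over the 6 arrays. Members and lists were chosen with earlier results of these data known. Besides the members, the 2 genes of each pathway list with the smallest unadjusted p were named, and the 4 genes most like Slc1a2 and Gja1.

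FLX and VEH share replicate numbers, whose meaning the labels do not give. Deviations from the group means correlated between same-numbered arrays at r = 0.70, 0.84 and 0.87, all above 0.1, and the numbers were taken as pairing the arrays. Unlike numbers also correlated, at 0.64 for FLX 1 with VEH 2 and 0.76 for FLX 2 with VEH 1. VEH 1 thus ran closer to FLX 2 than to FLX 1. Because replicate 3 stands apart in both groups, these correlations cannot decide how the arrays of replicates 1 and 2 pair. Differences by pair and p-values with the block rest on that assumption. The replicate block was an alternative, as were a pseudocount of 16, other filters, scalings and left-out arrays. p-values measure the spread between these 3 arrays per group, whose number limits the precision.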

Additional observations from a re-analysis of the deposited data

How the results depend on the processing

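The count of called probe sets was 0 under every alternative run, for all probe sets and for the members: the replicate block, a pseudocount of 16, no filter, 50 or more in all 6 arrays, centring on the median, repeated quantile normalization, each array left out and both replicate 3 arrays left out. The replicate block changed no call and, with equal numbers per pair, left the median at 0.04. The median log2 difference of the 9 genes ran from -0.41 to 0.59 with arrays left out. It was 0.33 for the 4 genes less tied to leptomeningeal cells, an alternative chosen after seeing the data. With arrays left out, the single differences ran from -0.41 to 0.52 for Clu, -0.84 to 0.59 for Gja1, -1.15 to 0.90 for Apoe, -0.48 to 0.37 for Slc1a3, -1.61 to 0.95 for Gjb6 and -0.41 to 1.05 for Sparcl1. They kept a positive sign for Slc1a2 (0.11 to 0.64), Glul (0.00 to 0.10) and Aldoc (0.05 to 0.71). Leaving out a single array makes the replicate numbers unequal between the groups. These ranges therefore also carry each gene's difference of replicate 3 from the other replicates. Without both replicate 3 arrays Gjb6, for example, differed by -0.38. The mean of all tested probe sets turned Slc1a3 to 0.021, and the second-brightest probe sets, added after seeing the data, turned Slc1a3 to 0.21 and Slc1a2 to -0.19. The cause was not tested. The medians for replicate 3 were rerun only with the mean of all tested probe sets, the pseudocount and centring on the median. In FLX arrays they ran from -1.47 to -1.29, where the main value was -1.36. In VEH arrays they ran from -1.50 to -1.23, where the main value was -1.45.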
